A study of Mus musculus with 133 samples.

Results

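Hepatocytes of very old male mice (VOM) were compared with those of young male mice (YM) at 44 h after partial hepatectomy (PH), an operation that takes out most of the liver, here its left and median lobes. The members were the libraries labelled with these conditions, 3 of VOM and 3 of YM, which is 6 of the 133 libraries of the series. All mice were wild-type C57BL/6 males, YM 11 to 14 weeks and VOM 100 weeks old, and they carried no transgene. Hepatocytes were freshly isolated by collagenase perfusion, and their RNA was counted by 3'UTR-seq, in which each transcript is tagged at its 3' end with a molecular identifier. Replicates 1 and 2 of both ages belong to a pool of libraries labelled mix 24, and replicate 3 of both ages to mix 26, so that age could be tested within mixes.

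After PH the remaining hepatocytes leave quiescence, copy their DNA and divide. S phase genes supply the replication machinery, and mitotic genes, which act later, build the spindle and drive the separation of chromosomes. While they divide, hepatocytes also go on with the work of the liver, such as drug metabolism, secretion of plasma proteins and handling of lipids. The comparison asks how this state differs with age at one time after surgery.

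Most mitotic genes lay lower in VOM (median log2 fold change -1.01, and -0.36 without YM replicate 2), and many of their promoters share sequence elements, so examples are printed here beside promoters of 2 other groups. Each line gives the 250 bases before a transcription start, taken from RefSeq on GRCm38.p6, 5′ to 3′ along the gene. In Cdc20, an activator of the anaphase-promoting complex, and Ube2c, the ubiquitin-conjugating enzyme of that complex, capitals mark TTTGAA, a core of the cell cycle genes homology region, and CCAAT, the box read by NF-Y. In Mvd, an enzyme of the mevalonate pathway, capitals mark CCAAT, and in Hspa1b, an inducible HSP70 chaperone, GAANNTTC, a core of the heat shock element. Both strands were searched, and adjacent or overlapping matches appear as 1 capital run. Both mitotic examples hold TTTGAA, whereas the promoters of Ttk and Kif23, other mitotic genes lower in VOM, held none.
Cdc20 (chr4:118437344-118437593, minus strand): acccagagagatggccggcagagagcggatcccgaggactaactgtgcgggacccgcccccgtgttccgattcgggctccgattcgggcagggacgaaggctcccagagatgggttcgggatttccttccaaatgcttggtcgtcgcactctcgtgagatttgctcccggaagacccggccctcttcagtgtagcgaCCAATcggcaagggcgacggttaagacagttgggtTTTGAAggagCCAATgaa
Ube2c (chr2:164769679-164769928, plus strand): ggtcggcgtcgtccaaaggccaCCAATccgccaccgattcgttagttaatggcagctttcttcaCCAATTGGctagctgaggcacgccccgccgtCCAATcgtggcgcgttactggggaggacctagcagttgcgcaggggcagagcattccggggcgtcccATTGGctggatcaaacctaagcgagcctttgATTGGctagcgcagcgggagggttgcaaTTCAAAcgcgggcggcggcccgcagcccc
Mvd (chr8:122443423-122443672, minus strand): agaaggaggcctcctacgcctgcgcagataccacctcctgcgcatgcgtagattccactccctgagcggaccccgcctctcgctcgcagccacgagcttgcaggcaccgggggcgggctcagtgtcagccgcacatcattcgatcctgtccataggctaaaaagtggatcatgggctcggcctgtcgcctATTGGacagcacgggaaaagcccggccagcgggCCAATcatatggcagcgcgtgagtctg
Hspa1b (chr17:34959239-34959488, minus strand): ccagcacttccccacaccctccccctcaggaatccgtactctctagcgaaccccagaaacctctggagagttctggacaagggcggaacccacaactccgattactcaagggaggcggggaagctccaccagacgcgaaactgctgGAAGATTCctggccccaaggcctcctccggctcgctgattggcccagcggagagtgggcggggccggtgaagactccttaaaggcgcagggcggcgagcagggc

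TTTGAA stood in 19 of the 49 mitotic genes with a promoter in the table (38.8%) and in 18.3% of 27025 genes. These 27025, called all genes in this paragraph, are every gene with a promoter. They are a wider set than the 10888 genes tested here, so the shares are not matched for expression. CCAAT stood in 35 of these 49 mitotic genes (71.4%), in 19 of 23 cholesterol genes (82.6%) and in 37.5% of all genes. GAANNTTC stood in 7 of 31 heat shock and oxidative stress genes (22.6%) and in 7.73% of all genes. These are counts of letters in a window and say nothing about binding.

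Total counts were 33410139 to 55400915 in YM and 3683982 to 26453519 in VOM, but 68 of the 11049 genes exceeded 34069.6, the most that the correction for used identifiers can give, in at least 1 of the 6 libraries. These 68 genes held 80.8% to 93.8% of the counts and were dropped before scaling. Without them the totals were 2538217 to 3410132 in YM and 667262, 2283932 and 1730260 in VOM replicates 1, 2 and 3. Depth therefore moved with age, and its part in the results was not tested. VOM replicate 1 had the lowest correlation with the other libraries (Pearson's r across genes 0.91 to 0.92, against 0.93 to 0.97 among the other 5). Levels are given in CPM, the counts of a gene relative to its library's total, after TMM normalization. Hepatocyte markers were present in all libraries: Apoa1, an apolipoprotein, stood at 4217 to 5687 CPM in YM and 6989 to 8218 CPM in VOM.

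Of 10888 genes tested, 10 were called higher in VOM (0.0918%) and 7 were called lower (0.0643%). The calls came from edgeR's quasi-likelihood test with mix as a covariate, and needed an adjusted p under 0.1 as well as a 2-fold difference. At an unadjusted p under 0.05 there were 407 higher (3.74%) and 421 lower (3.87%), and the median log2 fold change over all genes was -0.01. On counts simulated for this comparison, the same rule called 39.5% of genes changed 2-fold and 100% of those changed 4-fold. The changed genes were drawn from genes with higher counts. A gene changed exactly 2-fold is often estimated below the 2-fold minimum, so the 39.5% does not measure how well such changes are detected. In the libraries themselves, differences above 4-fold could miss the threshold, such as that of the P450 gene Cyp3a11, 4.84-fold lower in VOM. The simulated shares therefore do not carry over to the libraries. DESeq2 called 68 higher and 48 lower, and these included all 17 genes.

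The 10 higher genes held 4 of the 5 immunoglobulin constant genes tested, which antibody-producing cells transcribe. Igkc, the kappa light chain constant region (chr6:70726435-70726966, GRCm38 as are all coordinates), stood at 2.24, 1.58 and 2.2 CPM in YM and 96.1, 84.7 and 82.7 CPM in VOM. Its log2 fold change was 5.39 ± 0.26 (SE; edgeR adjusted p = 0.000519), and no VOM library came near a YM library. Ighg2b, a heavy chain (chr12:113302965-113307933), stood at 7.10, 3.55 and 3.57 CPM in YM and 48.0, 64.2 and 55.4 CPM in VOM (log2 fold change 3.58 ± 0.31, edgeR adjusted p = 0.0107). Ighm, the IgM heavy chain (chr12:113418558-113422730), had 4 counts over the YM libraries and 12, 57 and 7 counts in VOM replicates 1, 2 and 3 (log2 fold change 4.93 ± 0.50, edgeR adjusted p = 0.0201). Ighg2c rose as well, with a log2 fold change of 3.96 ± 0.56 (edgeR adjusted p = 0.0734), and 9 of 18 alternatives did not call it. Igha, the IgA heavy chain, stood at 0 to 2.37 CPM in YM and 0 to 5.48 CPM in VOM and was not called. Of 8 B and plasma cell markers listed, only Igkc and Ighm were in the table. In normal liver (NL) each age had its own mix, and mix cannot be told apart from age. There Igkc stood at 5.81 ± 2.08 CPM in YM and 119 ± 77.9 CPM in VOM (SD, n = 3, on a scale set over the 45 libraries, 3 for each of 15 groups, that the study lists). Among old males (OM, 60 weeks) at 44 h it stood at 27.2 to 50.2 CPM, above every YM and below every VOM library.

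The other higher genes were of mixed function. Pltp, the phospholipid transfer protein of plasma lipoproteins (chr2:164839518-164857711), stood at 117, 115 and 91.2 CPM in YM and 250, 326 and 277 CPM in VOM, 2.66-fold higher (log2 fold change 1.41 ± 0.19, edgeR adjusted p = 0.0604). Txnip, the thioredoxin-interacting protein that responds to glucose (chr3:96557957-96561883), stood at 35.9, 35.1 and 35.7 CPM in YM and 100, 119 and 79.7 CPM in VOM (log2 fold change 1.47 ± 0.20, edgeR adjusted p = 0.0654). Slc22a27, a member of the organic anion transporter family (chr19:7864388-7966027), stood at 5.23, 2.76 and 5.77 CPM in YM and 33.5, 41.0 and 32.9 CPM in VOM. These 3 genes kept the groups apart in every library. Olfr701, an olfactory receptor gene, had 4 counts over YM and 61 over VOM, a ratio of 30.1 (exact 95% interval 11.2 to 114, counting error only). Chrm3, a muscarinic acetylcholine receptor, stood at 247, 164 and 286 CPM in YM and 2978, 1509 and 1787 CPM in VOM. Itgam, an integrin of myeloid cells, stood at 3832, 3514 and 2189 CPM in YM and 17654, 14583 and 9225 CPM in VOM, whereas its highest value in the 36 listed libraries of NL and other times was 15.4 CPM. Its log2 fold change was 2.11 ± 0.28 (edgeR adjusted p = 0.0604), and 12 of 18 alternatives did not call it.

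**Figure D1:**
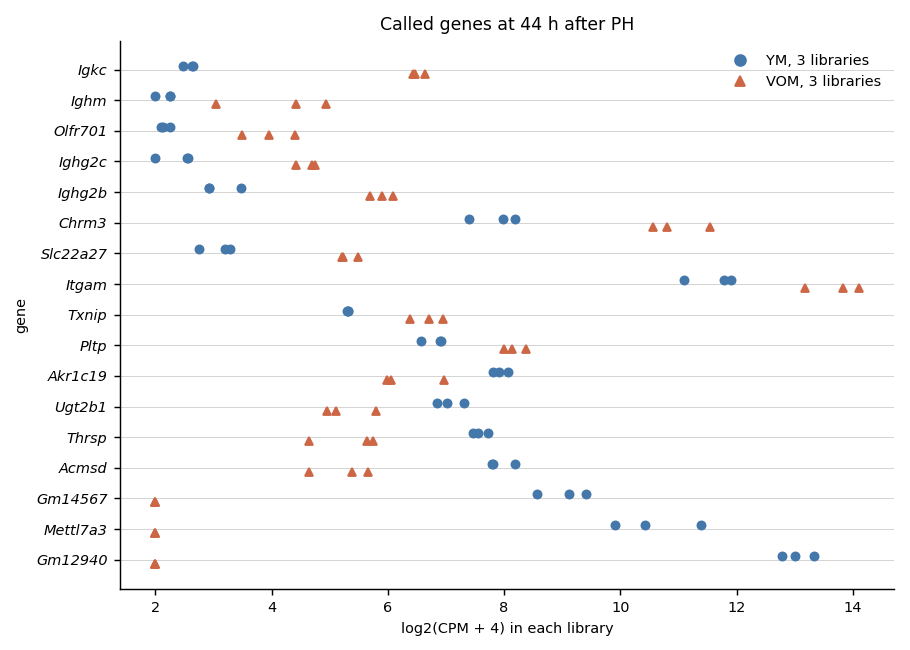
Levels of the 17 called genes in each library at 44 h after PH, as log2(CPM + 4), with circles for the 3 YM and triangles for the 3 VOM libraries. The groups do not overlap for any of these genes, and Gm14567, Mettl7a3 and Gm12940 sit at 0 CPM in all VOM libraries.

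Among the lower genes were 4 enzymes or regulators of hepatocyte metabolism. Acmsd, which turns the kynurenine pathway of tryptophan away from NAD synthesis (chr1:127729413-127767978), stood at 288, 219 and 216 CPM in YM and 37.8, 20.9 and 46.2 CPM in VOM, 7.14-fold lower (log2 fold change -2.84 ± 0.31, edgeR adjusted p = 0.0252). Thrsp, a regulator of fatty acid synthesis (chr7:97412938-97417730), stood at 183, 172 and 206 CPM in YM and 49.5, 20.9 and 45.6 CPM in VOM (log2 fold change -2.34 ± 0.30, edgeR adjusted p = 0.0576). Ugt2b1, a glucuronosyltransferase (chr5:86916638-86926530), stood at 126, 111 and 156 CPM in YM and 30.6, 27 and 51.7 CPM in VOM (log2 fold change -1.89 ± 0.20, edgeR adjusted p = 0.0244). Every VOM library lay below every YM library for these 3 genes. Akr1c19, an aldo-keto reductase (chr13:4228700-4252843), stood at 219, 237 and 264 CPM in YM and 59.7, 62.4 and 122 CPM in VOM (log2 fold change -1.62 ± 0.22, edgeR adjusted p = 0.0604). Acmsd stood at 163 ± 26.7 CPM in YM NL and 163 ± 27.5 CPM in VOM NL (SD, n = 3, scale of 45 libraries), and Thrsp at 1035 ± 523 and 153 ± 2.77 CPM. Members of the Ugt2b and Akr1c families are close in sequence, so the split of counts among their 3' ends is uncertain.

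The remaining 3 lower genes were at 0 in every VOM library. Gm14567, a processed pseudogene (chrX:38969817-38969990), stood at 676, 551 and 376 CPM in YM, at least 211-fold higher than the 2.53 CPM that 3 counts per library make on average in VOM. Mettl7a3, a gene of a methyltransferase-like family, stood at 960, 2658 and 1370 CPM in YM, at least 657-fold higher by the same floor. Gm12940, a processed transcript, stood at 10351, 7022 and 8248 CPM in YM, at least 3377-fold higher. In the 36 listed libraries of NL and other times the highest values of Mettl7a3 and Gm12940 were 5.86 and 8.29 CPM. In OM at 44 h, Gm14567 was at 0 in replicate 1 and at 1155 and 1376 CPM in replicates 2 and 3, Mettl7a3 at 0, 464 and 602 CPM, and Gm12940 at 10535 to 11132 CPM. Over all genes, 41 of 10932 stood above 100 CPM in a library at 44 h and over 10 times above their highest value in those 36 libraries, and 3 of these 41 were among the 17 called genes.

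When 1 library was left out in turn, Igkc, Gm12940, Gm14567 and Mettl7a3 were called each time. Acmsd lost its call only without VOM replicate 1 (edgeR adjusted p = 0.102), Ighg2b only without VOM replicate 3, and Ighm without YM replicate 2 or VOM replicate 2. The other 10 genes lost it without each of 3 to 6 of the 6 libraries, and all 17 kept their direction.

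Of the cell cycle lists, no gene was called, but most members lay lower in VOM. In mitosis and G2/M, 52 of 60 genes tested had a log2 fold change below 0, with a median of -1.01, and 13 had an unadjusted p under 0.05, all lower. In DNA replication and S phase, 37 of 42 lay below 0, with a median of -0.44, and 7 had an unadjusted p under 0.05, all lower. Yet the groups overlapped for most of these genes. Over all genes with a mean of at least 10 counts, the groups did not overlap for 7.24% higher and 9.79% lower in VOM. Among the mitotic genes with that mean, the share was 4 of 49 (8.16%) lower and 0 higher. Thus the share of mitotic genes with separate groups was near that of all genes.

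YM libraries spread widely for many of these genes. Cdk1, the kinase that starts mitosis, stood at 32.2, 174 and 121 CPM in YM and 37.8, 27.5 and 70.0 CPM in VOM (log2 fold change -1.36 ± 0.57, edgeR adjusted p = 0.642). YM replicate 1 lay within the VOM range, and YM replicates 2 and 3 above it. Cdc20 stood at 18.7, 81.6 and 45.1 CPM in YM and 2.91, 10.7 and 23.7 CPM in VOM (log2 fold change -1.92 ± 0.65, edgeR adjusted p = 0.560). Ttk, a kinase of the spindle checkpoint, stood at 14.6, 17.7 and 13.7 CPM in YM and 7.28, 6.52 and 9.13 CPM in VOM, without overlap (edgeR adjusted p = 0.493). Kif23, a kinesin of cytokinesis, Ube2c and Ncapg, a condensin subunit, were the other mitotic genes without overlap, at log2 fold changes of -1.56, -1.53 and -1.30. Spc24, a kinetochore protein, had the smallest p of the list (0.00527, edgeR adjusted p = 0.435) and overlapped in 1 library, YM replicate 1 at 18.3 CPM against 18.9 CPM in VOM replicate 3. Summed over the 60 genes, the list reached 725, 2375 and 1631 CPM in YM and 700, 567 and 1171 CPM in VOM. Without YM replicate 2 the median of the mitotic list was -0.36.

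Among S phase genes, Tk1, the thymidine kinase that recycles thymidine, stood at 29.2, 54.4 and 68.4 CPM in YM and 32.0, 14.4 and 31.6 CPM in VOM (log2 fold change -1.03 ± 0.35, edgeR adjusted p = 0.567). Slbp, which binds histone mRNA, was the only gene without overlap among the 34 of its list with a mean of at least 10 counts. This is 2.94%, against 9.79% of all genes. Its groups nearly touched, at 29.96 to 37.8 CPM in YM and 18.9 to 29.8 CPM in VOM. Pcna, the sliding clamp of DNA polymerase, stood at 74.8, 146 and 182 CPM in YM and 85.9, 79.1 and 95.5 CPM in VOM (log2 fold change -0.60 ± 0.28, edgeR adjusted p = 0.673). Of the 11 cell cycle genes that the study displayed for these samples, which are thus no independent evidence, 10 lay below 0 with a median of -0.85, and 2, Cdc20 and Cdk1, had an unadjusted p under 0.05. Of the study's 10 DNA damage response genes, 6 lay below 0 with a median of -0.13, and none had an unadjusted p under 0.05 (edgeR; none was called). In OM at 44 h, replicates 1 and 2 reached 131 and 113 CPM of Cdk1, and replicate 3, of mix 26, 4.82 CPM.

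**Figure D2:**
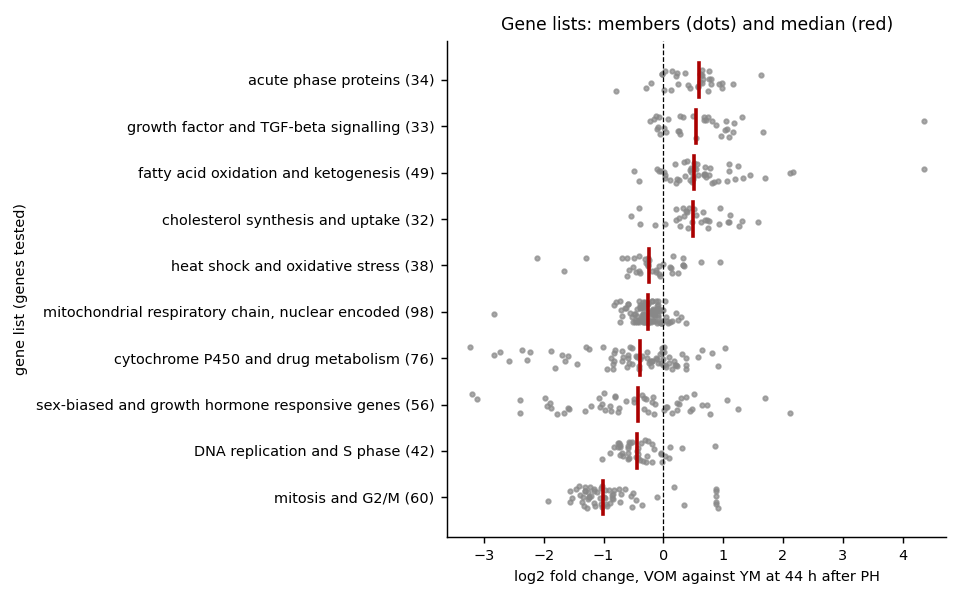
Log2 fold change of each tested gene (dots) of 10 gene lists, VOM against YM at 44 h after PH, with the median of each list in red and the median of all genes as a dashed line. The lists of cholesterol, fatty acid oxidation, growth factor and acute phase genes have medians from 0.49 to 0.59, and mitosis and G2/M a median of -1.01, or -0.36 without YM replicate 2.

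Of 76 drug metabolism genes, 56 lay lower in VOM and 20 higher, and 1, Ugt2b1, was called. At an unadjusted p under 0.05 there were 28 lower and 2 higher. Of 74 genes with a mean of at least 10 counts, 26 lay lower without overlap (35.1%, against 9.79% of all genes). Another 3 lay higher without overlap (4.05%, against 7.24%). The median was -0.39. Cyp3a11, the main CYP3A of male mouse liver, stood at 1138, 893 and 904 CPM in YM and 217, 95.9 and 341 CPM in VOM (log2 fold change -2.28 ± 0.42, edgeR adjusted p = 0.226). Cyp2c29, of another P450 family, stood at 1801, 2236 and 2147 CPM in YM and 627, 335 and 1121 CPM in VOM (log2 fold change -1.70 ± 0.39, edgeR adjusted p = 0.344). Cyp2b10, a known target of the nuclear receptor CAR, stood at 34.4, 18.5 and 31.3 CPM in YM and 0, 5.12 and 6.69 CPM in VOM. In contrast, Nr1i3, which encodes CAR, stood at 65.0, 67.8 and 73.1 CPM in YM and 119, 195 and 110 CPM in VOM, higher in every VOM library (log2 fold change 1.03 ± 0.25, edgeR adjusted p = 0.366).

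The list also held glutathione S-transferases, which conjugate electrophiles. Gstp1 stood at 268, 462 and 377 CPM in YM and 94.6, 127 and 145 CPM in VOM (log2 fold change -1.59 ± 0.26, edgeR adjusted p = 0.153). Gsta4, the isoform that handles lipid peroxidation products, stood at 143, 132 and 127 CPM in YM and 50.9, 21.4 and 46.8 CPM in VOM (log2 fold change -1.82 ± 0.32, edgeR adjusted p = 0.180). Gstm1 stood at 997, 1044 and 1143 CPM in YM and 359, 404 and 556 CPM in VOM (log2 fold change -1.29 ± 0.25, edgeR adjusted p = 0.226). None of the 3 overlapped between groups, and none was called. Gstp1 and its neighbour Gstp2 are nearly identical, so their split is uncertain.

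The sex-biased and growth hormone responsive genes share members with this list. Of 56 tested, 17 lay lower (30.4%, against 3.87% of all genes) and 4 higher (7.14%, against 3.74%) at an unadjusted p under 0.05. Of 47 genes with a mean of at least 10 counts, 12 lay lower without overlap (25.5%, against 9.79% of all genes). A further 5 lay higher without overlap (10.6%, against 7.24%). The median was -0.42, and Ugt2b1 was called. Both male-biased and female-biased members were among the lower genes: Cyp4a12b, a male-biased P450, stood at 125, 153 and 152 CPM in YM and 59.7, 72.2 and 54.1 CPM in VOM (log2 fold change -1.21 ± 0.20, edgeR adjusted p = 0.155). Cyp2a4 and Cyp3a41a, female-biased P450s, had log2 fold changes of -3.11 and -3.19. Large changes in this list need care, since 7 of its genes had 3 counts or fewer in every library of an age. In VOM replicate 1, 7 were at 0. Bcl6, a male-biased repressor, stood at 84.1, 52.4 and 68.1 CPM in YM and 26.2, 10.7 and 38.3 CPM in VOM (log2 fold change -1.57 ± 0.40, edgeR adjusted p = 0.418). Nudt7, a peroxisomal hydrolase of coenzyme A, stood at 75.9, 56.0 and 93.7 CPM in YM and 27.7, 28.9 and 34.1 CPM in VOM, without overlap.

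In cholesterol synthesis and uptake, 28 of 32 genes lay above 0, with a median of 0.49, 11 higher and 1 lower at an unadjusted p under 0.05, and 10 higher (31.2%, against 7.24% of all genes) and 2 lower (6.25%, against 9.79%) without overlap. Mvd stood at 46.4, 66.2 and 30.5 CPM in YM and 160, 115 and 80.9 CPM in VOM (log2 fold change 1.32 ± 0.23, edgeR adjusted p = 0.172). Sqle, the squalene epoxidase, stood at 36.3, 47.3 and 34.1 CPM in YM and 99.0, 108 and 51.7 CPM in VOM (log2 fold change 1.08 ± 0.23, edgeR adjusted p = 0.308). Fdps, the farnesyl diphosphate synthase, stood at 21.7, 22.9 and 15.9 CPM in YM and 39.3, 37.2 and 38.9 CPM in VOM. None of the 32 genes was called by edgeR.

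In fatty acid oxidation and ketogenesis, 44 of 49 genes lay above 0, with a median of 0.52. At an unadjusted p under 0.05 there were 17 higher and 0 lower (edgeR; none was called), and 17 of 45 genes with a mean of at least 10 counts lay higher without overlap (37.8%, against 7.24% of all genes). Acot2, a mitochondrial thioesterase, stood at 22.8, 35.5 and 18.96 CPM in YM and 72.8, 204 and 71.8 CPM in VOM (log2 fold change 2.17 ± 0.39, edgeR adjusted p = 0.200). Cyp4a14, a target of PPAR alpha, stood at 2434, 2041 and 1921 CPM in YM and 3644, 8604 and 4059 CPM in VOM. VOM replicate 2 was the highest library for both genes. In contrast, the 43 genes of fatty acid synthesis and lipid droplets had a median of 0.09, and Thrsp was called lower. At an unadjusted p under 0.05, 8 lay higher (18.6%, against 3.74% of all genes) and 3 lower (6.98%, against 3.87%).

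**Figure D3:**
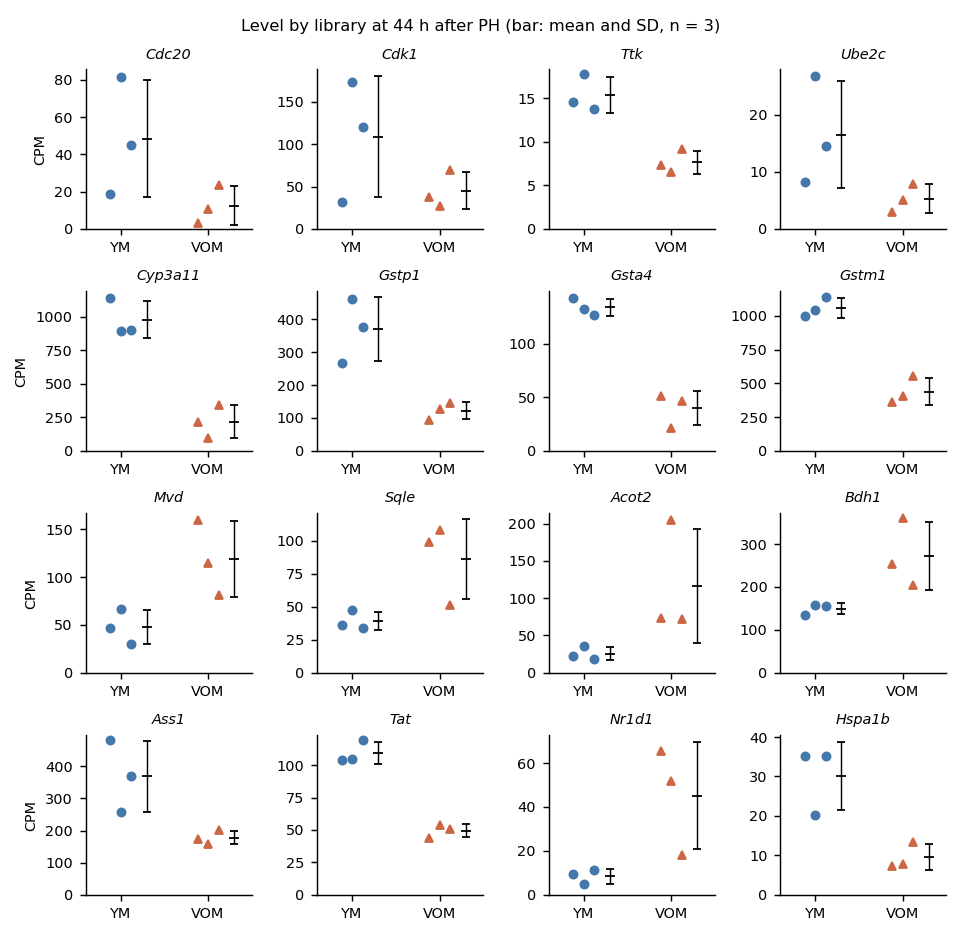
CPM of 16 genes in each library at 44 h after PH, with circles for YM, triangles for VOM, and a black bar for the mean and SD (n = 3). Cdc20 and Cdk1 spread widely in YM, where replicate 1 lies near the VOM libraries, whereas the groups stand apart for Gsta4, Gstm1, Ass1 and Tat.

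Of 34 acute phase genes, 29 lay above 0 with a median of 0.59, and 14 lay higher without overlap (41.2%, against 7.24% of all genes). Apcs, the serum amyloid P component, stood at 205, 147 and 148 CPM in YM and 303, 399 and 280 CPM in VOM (log2 fold change 0.97 ± 0.21, edgeR adjusted p = 0.315). Hpx, the heme scavenger hemopexin, stood at 5292, 6131 and 4854 CPM in YM and 10356, 8038 and 9711 CPM in VOM. Of 33 growth factor and TGF-beta signalling genes, 26 lay above 0 with a median of 0.54. At an unadjusted p under 0.05, 9 lay higher (27.3%, against 3.74% of all genes) and 0 lower. Id1, an inhibitor of differentiation that BMP signals induce, stood at 15.3, 20.5 and 16.2 CPM in YM and 39.3, 41.0 and 28.0 CPM in VOM (log2 fold change 1.04 ± 0.23, edgeR adjusted p = 0.317). Igfbp2, which binds insulin-like growth factors, stood at 430, 450 and 430 CPM in YM and 838, 796 and 773 CPM in VOM (log2 fold change 0.88 ± 0.22, edgeR adjusted p = 0.409). Fgf21, a hepatokine of fasting, had 2 counts over the YM libraries and 1, 21 and 6 counts in VOM replicates 1, 2 and 3. None of these genes was called.

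Of 62 genes of amino acid metabolism and the urea cycle, 41 lay below 0 with a median of -0.19. At an unadjusted p under 0.05, 9 lay lower (14.5%, against 3.87% of all genes) and 1 higher (1.61%, against 3.74%). Tat, the tyrosine aminotransferase, stood at 104, 105 and 119 CPM in YM and 43.7, 53.5 and 51.1 CPM in VOM (log2 fold change -1.13 ± 0.18, edgeR adjusted p = 0.153). Ass1, of the urea cycle, stood at 481, 258 and 369 CPM in YM and 173, 160 and 201 CPM in VOM. The groups did not overlap for Tat or Ass1.

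Nuclear genes of the respiratory chain mostly had log2 fold changes below 0. The list held more than subunits of the chain, such as Ndufaf6, an assembly factor, and Atp5f1, of ATP synthase. Of 98 genes, 88 lay below 0, with a median of -0.26, 12 had an unadjusted p under 0.05, all lower, and 29 of 95 with a mean of at least 10 counts lay lower without overlap (30.5%, against 9.79% of all genes) and 2 higher (2.11%). Cox5a, of complex IV, stood at 242, 234 and 263 CPM in YM and 154, 143 and 151 CPM in VOM (log2 fold change -0.72 ± 0.16, edgeR adjusted p = 0.344). The 24 mitochondrially encoded genes had a median of 0.05, with 13 above 0 and 11 below. They included tRNA genes, only 17 had a mean of at least 10 counts, and the authors had excluded mt-Rnr2, mt-Nd4 and mt-Cytb. The median is thus no measure of the respiratory subunits. Of these, mt-Nd6 stood at 7.85, 34.3 and 40.1 CPM in YM and 2.91, 13.5 and 8.52 CPM in VOM (log2 fold change -1.49 ± 0.63, edgeR adjusted p = 0.652). Its groups overlapped, as YM replicate 1 lay within the VOM range. Among the 17 mitochondrially encoded genes, 3 lay higher without overlap (17.6%, against 7.24% of all genes) and 0 lower. Of 38 heat shock and oxidative stress genes, with a median of -0.25, none was called. At an unadjusted p under 0.05 by edgeR, 7 lay lower (18.4%, against 3.87% of all genes) and 0 higher. Hspa1b stood at 35.1, 20.1 and 35.2 CPM in YM and 7.28, 7.91 and 13.4 CPM in VOM (log2 fold change -1.66 ± 0.31, edgeR adjusted p = 0.226). Genes of cytosolic ribosomal proteins (85, among them the processed pseudogene Rps3a3) had a median of 0.05, none had an unadjusted p under 0.05 (edgeR), and none was called.

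Among clock genes, Nr1d1, the repressor REV-ERB alpha, stood at 9.35, 4.73 and 11.3 CPM in YM and 65.5, 51.7 and 18.3 CPM in VOM (log2 fold change 2.23 ± 0.50, edgeR adjusted p = 0.325). Dbp, a clock output factor, stood at 2.62, 2.76 and 3.02 CPM in YM and 13.1, 8.85 and 6.08 CPM in VOM. Over the 23 clock genes the median was 0.14. At an unadjusted p under 0.05, 3 lay higher (13%, against 3.74% of all genes) and 2 lower (8.7%, against 3.87%). By the study's methods all surgeries fell in the morning, the start of the light phase. The hour for each mouse was not given in the sources used here, and its part in these values was not tested.

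Markers of other liver cells were checked because isolated hepatocytes can carry them, and in bulk RNA more cells of a type and more RNA per cell cannot be told apart. Kupffer cell and macrophage markers lay higher in VOM for 14 of the 14 genes tested, with a median of 0.56. Of the 15 listed, 1 was dropped for counts over the limit. Cd68, a macrophage gene over the limit, had 98137, 111181 and 101696 counts in YM and 42384, 59900 and 49412 in VOM. These counts are not scaled for depth, which was also lower in VOM, so they give no direction for this gene. The 14 genes tested summed to 492 to 710 CPM in YM and 643 to 1377 CPM in VOM. The sum was highest in VOM replicate 1, and none of the 14 was at 0. Sinusoidal endothelial markers summed to 404 to 501 CPM in YM and 453 to 557 CPM in VOM, with a median of 0.17 over 15 genes. Stellate cell and fibroblast markers had a median of 0.30 over 14 genes, and their sum of 412 to 5281 CPM rested on Des, which stood at 0 in VOM replicate 1 and 2583 to 4934 CPM elsewhere. The 4 erythroid genes tested all lay lower in VOM, with 3, 1 and 2 of them at 0 in VOM replicates 1, 2 and 3, and summed to 31.1 to 50.5 CPM in YM and 8.38 to 21.3 CPM in VOM, and the 4 cholangiocyte and progenitor genes tested (of 12) summed to 66.8 to 213 CPM in YM and 98.6 to 180 CPM in VOM. Of 10 T and NK cell and 8 neutrophil markers none was in the table. The part of these cells in the results, immunoglobulin genes included, was not tested.

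At 1 month after PH, when the ages shared mixes 25 and 27, the same test called 19 of 10931 genes between VOM and YM (0.174%), 13 higher (0.119%) and 6 lower (0.0549%). Some of these calls rested on few libraries. Bub1b and Ankrd2 were at 0 in all but VOM replicate 3, which had 1551 and 5779 CPM. Cntnap1 and Eif4a-ps4 were at 0 in YM replicate 3 as well as in every VOM library. Of the 17 genes called at 44 h, 15 were tested at 1 month, and 2, Igkc and Gm14567, were called in the same direction. Igkc stood at 3.42, 4.38 and 3.63 CPM in YM and 44.2, 41.1 and 35.0 CPM in VOM at 1 month (log2 fold change 3.35 ± 0.27, edgeR adjusted p = 0.00127). Gm14567 stood at 571, 332 and 492 CPM in YM and at 0 in all VOM libraries. At 1 month the median of the lists was -0.03 for mitosis and G2/M, 0.04 for drug metabolism, -0.18 for cholesterol and -0.07 for fatty acid oxidation, whereas it was 0.55 for acute phase genes and -0.21 for the respiratory chain. Whether the difference between ages itself differed between 44 h and 1 month was tested by an interaction term, which called 3 of 10911 genes (0.0275%), Gm12940, Bub1b and Cntnap1, while 492 (4.51%) had an unadjusted p under 0.05.

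**Figure D4:**
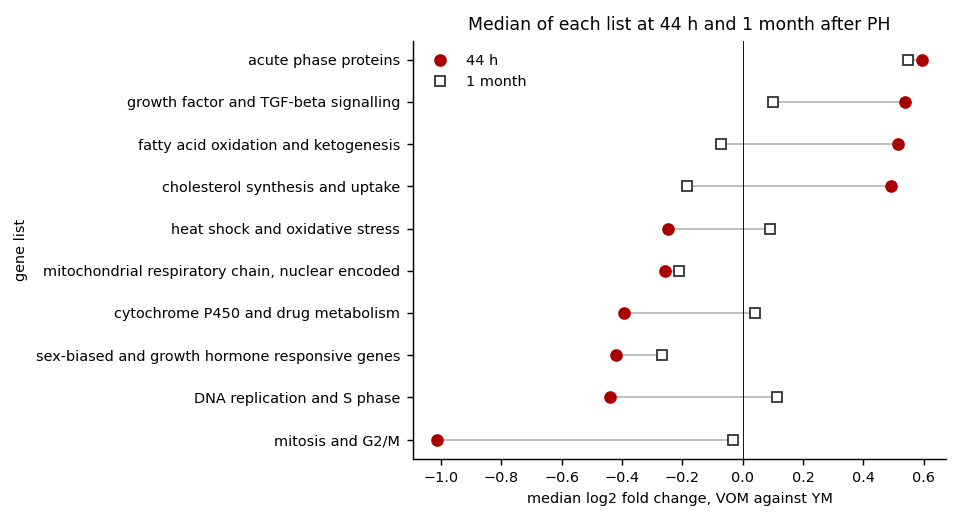
Median log2 fold change of 10 gene lists, VOM against YM, at 44 h (red circles) and 1 month (open squares) after PH. The medians of mitosis and drug metabolism lie near 0 at 1 month, at -0.03 and 0.04, and those of acute phase genes at 0.59 and 0.55.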

How the data were processed

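Hepatocyte RNA was sequenced by 3'UTR-seq (CEL-seq2). The authors mapped reads to GRCm38, counted identifiers per gene, corrected for a space of 4096 identifiers, excluded 9 abundant and all weakly expressed genes, and corrected batches with ComBat-Seq; its batch variable was not given in the sources used here. The values the authors deposited are these batch-corrected expected counts (estimated counts, not whole in 1567 values of these libraries), not scaled for library size, and were rounded here. The submitters' processing notes name bcl2fastq 2.20.

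Genes over the ceiling of that correction, 34069.6, in the 6 libraries were dropped (68), and genes with at least 0.5 CPM in 1 library were tested. Age was tested beside mix in edgeR 4.0.16 under R 4.3.3 (quasi-likelihood, TMM), called at an adjusted p under 0.1 and 2-fold. DESeq2 1.42.0 was an alternative. In a check on simulated data with 200 genes changed, edgeR called 39.5%, 100% and 98.4% of genes changed 2-, 4- and 8-fold and 16 unchanged genes. The 2-fold changes lay at the fold minimum for a call, which by itself lowers their share. Gene coordinates are from GENCODE vM21 and promoters from RefSeq (GRCm38.p6). A floor of 3 counts per library bounds folds against 0, and intervals are exact 95%. Counts of genes without overlap use genes with a mean of at least 10 counts, a limit set after values at 1 count per library were seen. Python 3.11.15, pandas 2.3.3, SciPy 1.17.1 and matplotlib 3.10.9 made tables and plots.

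The libraries compared, the gene lists and the marker lists were chosen with earlier results of these data known. Named genes are all called genes, further genes by p up to 12 a direction, the 4 members of each list with the smallest p, genes the study names, and members that define a pathway. Some genes that this rule names are not reported here. For 1 month, 28 genes over the limit were dropped. The mice were separate animals, 3 per group, which limits the precision. Total counts after the drop were 667262 to 3410132.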

Additional observations from a re-analysis of the deposited data

Results flagged for a closer look

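The difference between ages differed between 44 h and 1 month for 3 genes by edgeR's interaction test, each with libraries at or near 0 beside high ones. Gm12940 had an interaction of -17.28 on the log2 scale (edgeR adjusted p = 0.000285): it stood at 7022 to 10351 CPM in YM at 44 h and at 0 in VOM, and at 0.80 to 3.46 CPM in all libraries at 1 month. Cntnap1 had an interaction of 14.29 (edgeR adjusted p = 0.00208). It stood at 427, 337 and 0 CPM in YM replicates 1 to 3 at 1 month and at 0 in VOM, and at 0.27 to 8.38 CPM in the 6 libraries at 44 h. Bub1b, a gene of the spindle checkpoint, had an interaction of -13.50 (edgeR adjusted p = 0.00778). It rested on 1 library, VOM replicate 3 at 1 month with 1551 CPM, while the other 5 libraries at 1 month were at 0 and those at 44 h at 0.37 to 1.97 CPM.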

How the results depend on the processing

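The counts of genes higher and lower in VOM at 44 h were 68 and 48 by DESeq2, 67 and 60 with all 45 listed libraries in the model, 5 and 5 at an adjusted p under 0.05 with no fold minimum, 4 and 6 in mix 24 only, and 7 and 2 with all 9 libraries at 44 h. Leaving out 1 library in turn gave 3 to 11 higher and 5 to 12 lower; the fewest higher came without VOM replicate 3 and the most lower without VOM replicate 2. At 1 month 64 genes were called by DESeq2, 11 with at least 10 counts in 3 libraries, and 16 to 30 with 1 library left out, the most without YM replicate 2. The interaction called 47 by DESeq2, 1 without the mix covariate and 4 to 11 with 1 library left out. The replicate numbers did not pair the samples (correlations of same-numbered deviations -0.154, -0.073 and -0.021). With the replicate block, 14 genes were higher and 9 lower at 44 h, 21 were called at 1 month and 11 by the interaction. Of the 17 called genes, 2 (Igkc and Gm12940) were called under all their alternatives, and all kept their direction. Of the named genes' values under alternatives, 1665 kept direction and side of the threshold, 85 lost the call, 76 gained it and none reversed. Without VOM replicate 1 the share of genes without overlap was 12.9% higher and 14.3% lower. Depth in VOM limits genes of low counts.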
